A study of Danio rerio with 14 samples.

Results

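Alternate loci are extra sequences of a reference genome that give other versions of stretches already present on a chromosome, because fish of different haplotypes differ there. In the zebrafish assembly GRCz11 their names begin with the parent chromosome and end in "_alt", and a read from such a stretch can fit the chromosome, the alternate sequence, or both. All peaks of the 7 H3K27ac lists whose sequence name ends in "_alt" were taken, which gave 32868 peaks of 220034. A further 183982 peaks lay on chromosomes 1 to 25, the comparison used throughout, and 3184 lay on unplaced sequences.

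H3K27ac, acetylation of lysine 27 of histone H3, marks active promoters and enhancers and is laid down by acetyltransferases recruited by transcription factors. A peak is a stretch where chromatin pulled down with the antibody gave more reads than whole cell lysate. The mark on an alternate locus is read in the same way as on a chromosome, but a gene there may have another copy in the reference.

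The lists came from 4 tumors and 3 normal thymus samples. Tumors arose in transgenic fish that carry human IRF4, a lymphocyte transcription factor, under the zebrafish lck promoter, together with mCherry under the same promoter. Thymus came from fish with the lck:mCherry transgene alone, with fish aged 3 months, and cells positive for mCherry were sorted from both groups, so every library holds lck promoter activity by design. The transgenic lines were made in the Singapore wild-type strain, and the labels do not give the p53 genotype or the fish age of each tumor. In sorted bulk cells, fewer cells with the mark at a place and less of the mark per cell cannot be told apart. Samples keep the numbers of their titles, tumor 1 to tumor 4 and thymus 2, 3 and 5. The study calls the thymus samples pooled once and elsewhere does not, so exact p-values below measure the spread between libraries of unsettled make-up. Peak names of thymus 2 and thymus 5 carry the word "batch2", while the other 5 lists lack it. The lists without that word hold all 4 tumors and only thymus 3, so a test within that set rests on 1 thymus library.

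The lists held 19809 to 40335 peaks, and the files give no read depth. Of 10 T-cell marker genes, 6 have an interval in the study's tables, which were available in shortened form. Of these, 5 (lck, rag2, gata3, ikzf1 and runx3) had a peak in all 7 lists. The sixth, cd8a, the chain of the cytotoxic T-cell coreceptor, had a peak in 3 of 3 thymus lists and 0 of 4 tumors. A called peak does not measure signal, and for gata3 the paper reports high H3K27ac in several tumors and not in thymus. The intervals come from the study's own tables of these same samples, so these counts are no independent check of the tissue. None of these marker intervals lies on an alternate locus. The paper reports super-enhancers, clusters of active enhancers, at tcf7 and bcl11ba. The shortened form held no interval under the name tcf7, and bcl11ba was looked up only as bcl11b.

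Neither the number of peaks on alternate loci nor their share of the list separated tumors from thymus. Tumor 1, 2, 3 and 4 had 4073, 3942, 5038 and 2811 such peaks. Thymus 2, 3 and 5 had 3947, 6459 and 6598. Thymus 3 and thymus 5 stood above every tumor, while thymus 2 lay among the tumors. The mean was 3966 ± 912 in tumors (SD, n = 4) and 5668 ± 1492 in thymus (SD, n = 3), a difference of -1702 with an exact permutation p of 0.171 (two-sided, the share of the 35 splits with an absolute difference at least as large). As a share of the list the 4 tumors had 15.4%, 12.03%, 16.7% and 14.2%, and the 3 thymus samples 12.5%, 16.0% and 17.00%. The groups overlapped, with 14.6% ± 1.98 in tumors and 15.2% ± 2.38 in thymus (exact permutation p = 0.743). The smallest p that 4 against 3 samples allow is 0.0286.

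**Figure D1:**
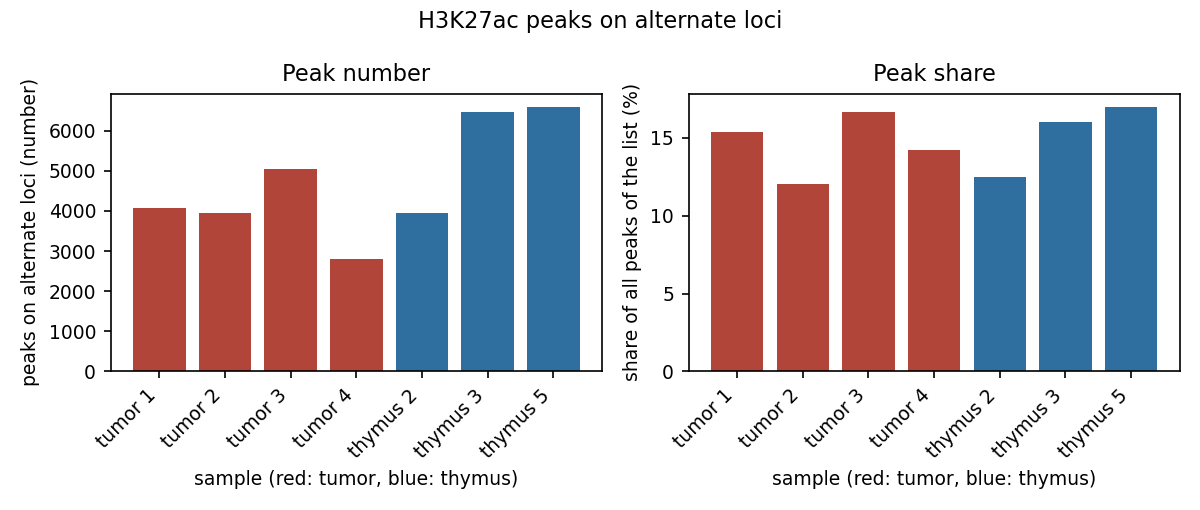
Number of H3K27ac peaks on alternate loci (left, number) and their share of all peaks of the list (right, %), 1 bar per sample, tumors in red and thymus in blue. Thymus 3 and thymus 5 have the highest numbers, 6459 and 6598, while the shares of both groups overlap between 12.03% and 17.00%.

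The length of alternate sequence under peaks also overlapped between the groups. Peaks covered 2.10, 1.89, 2.65 and 1.13 Mb of alternate loci in tumor 1 to 4, and 0.856, 2.15 and 2.47 Mb in thymus 2, 3 and 5. Tumor 4 and thymus 2 had the lowest values of their groups. In all, 905 alternate sequences held a peak in at least 1 list, and each list had peaks on 645 to 802 of them. Peaks of every list lay on 517 sequences, while 58 sequences had peaks of 1 list only. The median sequence held 13 merged regions, with a range of 1 to 84.

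Peaks on alternate loci were narrower than those on the chromosomes of the same list in 6 of 7 lists. The median width on alternate loci was 415, 362, 373 and 279 bp in tumor 1 to 4 and 149, 194 and 195.5 bp in thymus 2, 3 and 5. On chromosomes it was 453, 338, 421 and 339 bp in the tumors and 182, 210 and 222 bp in thymus. Only tumor 2 had wider peaks on alternate loci, by 24 bp. The within-list difference, alternate loci minus chromosomes, was -28.2 ± 27.1 bp (SD, n = 7, exact sign-flip permutation p = 0.0469, two-sided), and the ratio was -0.15 on the log2 scale (exact sign-flip p = 0.0313). With mean widths the difference was -79.3 bp and alternate loci were lower in 7 of 7 lists (exact sign-flip p = 0.0156, the smallest that 7 lists allow). Without tumor 2 the difference of medians was -36.9 bp (exact p = 0.0313), and without any other list it lay between -30.25 and -22.9 bp with an exact p of 0.0625 or 0.0938.

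Alternate loci also held a smaller share of wide peaks. The share of peaks of 1 kb or more was lower on alternate loci in 7 of 7 lists, by 4.49 percentage points on average (SD 1.21, exact sign-flip permutation p = 0.0156). This measure was added after the data were seen. The 10th percentile of width was lower on alternate loci in every list except tumor 2, which had 152 against 143 bp. The narrowest peak had the same width on alternate loci and chromosomes in every list. It is a lower limit that both share, so it tells nothing of the width difference. The widest peak on an alternate locus measured 3095 bp in thymus 2 and 5678 bp in tumor 2.

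The median width on alternate loci was higher in every tumor than in any thymus sample, though the test missed the threshold of 0.05. The 4 tumors (357 ± 56.9 bp, SD, n = 4) did not overlap the 3 thymus samples (179.5 ± 26.4 bp, SD, n = 3), yet the exact permutation p was 0.0571, because setting tumor 4 apart with the thymus samples in the other arm gives a difference just as large. On chromosomes the difference was 183 bp (exact permutation p = 0.0286). The lists differ in their narrowest peak, 128, 127, 117 and 72 bp in tumor 1 to 4 against 50, 53 and 54 bp in thymus 2, 3 and 5, and the part of this in the width difference was tested only in so far as peaks of at least 128 bp gave 125 bp (exact permutation p = 0.0286) and the 19809 widest peaks of each list gave 101 bp (exact permutation p = 0.371).

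**Figure D2:**
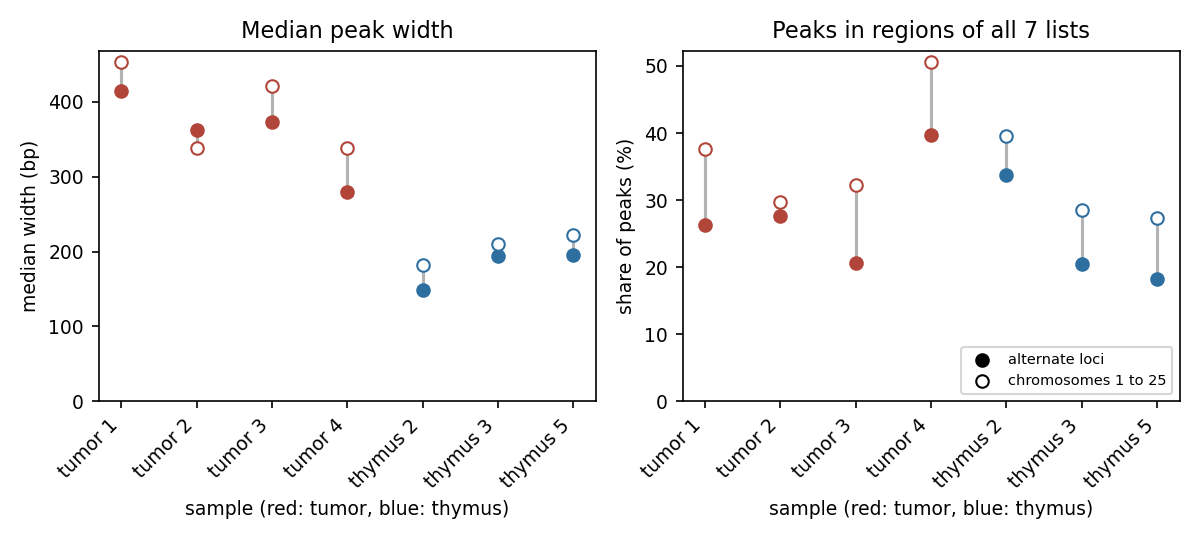
Median peak width in bp (left) and share of a list's peaks that lie in regions called in all 7 lists in % (right), for alternate loci (filled) and chromosomes 1 to 25 (open) of the same sample, tumors in red and thymus in blue. The filled point is below the open one in 6 of 7 lists on the left, with tumor 2 the exception, and in 7 of 7 on the right.

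Recurrence was described over merged regions, the union of peaks of all 7 lists that overlap by at least 1 bp. Alternate loci gave 14724 regions, with a median width of 192 bp. Of these, 10426 (70.8%) were called in a single list, against 71.4% of the 81921 regions on chromosomes. Regions called in 4 to 6 lists made up 11.6% on alternate loci and 8.11% on chromosomes. Regions called in all 7 lists numbered 888 on alternate loci (6.03%), where the background was 8.57% on chromosomes and 8.12% over all sequences. A widely shared region on an alternate locus was therefore more often short of a list than one on a chromosome.

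**Figure D3:**
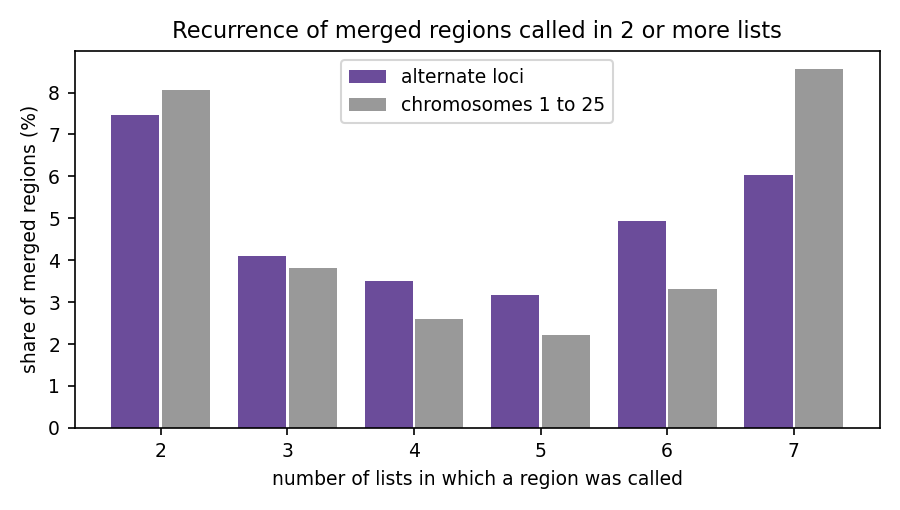
Share of merged regions (%) by the number of lists in which a region was called, for 2 to 7 lists, on alternate loci (purple) and chromosomes 1 to 25 (grey). Regions of 1 list, 70.8% and 71.4%, are not drawn, and the bars of 4 to 6 lists are higher on alternate loci while the bar of 7 lists is lower, 6.03% against 8.57%.

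The same shortfall can be read inside each list. The share of a list's peaks on alternate loci that lay in regions of all 7 lists was 26.3%, 27.6%, 20.7% and 39.8% in tumor 1 to 4 and 33.7%, 20.5% and 18.3% in thymus 2, 3 and 5. The same share on chromosomes was 37.7%, 29.7%, 32.3% and 50.6% in tumors and 39.6%, 28.6% and 27.3% in thymus. It was lower on alternate loci in 7 of 7 lists, with a difference of -8.42 ± 3.46 percentage points (SD, n = 7, exact sign-flip permutation p = 0.0156). This comparison was added after the data were seen. Without tumor 4 the difference was -6.15 (exact p = 0.0625), and without thymus 2 it was -4.28 (exact p = 0.0938). A region of all 7 lists enters the share of every list, so the 7 values are not independent. They largely restate the lower share of such regions given above, and these p-values do not measure 7 separate results.

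Thymus 2 and tumor 4 were the lists that a nearly complete region most often lacked. Of 727 alternate regions called in 6 lists, 427 (58.7%) lacked thymus 2 and 182 (25.03%) lacked tumor 4. On chromosomes those shares were 55.0% and 23.5% of 2714 regions. Regions of a single list came mostly from thymus 5 (2841) and thymus 3 (2630). Tumor 2 gave 847, or 8.12% of single-list regions on alternate loci, against 19.2% on chromosomes.

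Peaks on alternate loci recurred more often in tumors than in thymus. In tumor 1 to 4, 83.5%, 78.5%, 71.7% and 88.5% of them lay in a region called in at least 1 other list. In thymus 2, 3 and 5 these shares were 57.3%, 59.3% and 56.9%. The groups did not overlap (80.5% ± 7.20, n = 4, against 57.9% ± 1.25, n = 3, exact permutation p = 0.0286), and a tumor list has 3 other tumor lists to meet while a thymus list has 2 other thymus lists. The share of a list is set by its overlap with the other lists, so these values are not independent. The lists also differ in length and in their narrowest peak, and single-list regions on alternate loci had a median width of 143 bp. This comparison of the groups was not repeated at an equal minimum width or list length. On chromosomes tumor 2 stood at 60.3% and the groups overlapped (exact permutation p = 0.143). The alternate minus chromosome difference was 0.80 percentage points over all lists (exact sign-flip p = 0.922), with tumor 2 at 18.2. For that difference tumors and thymus differed by 9.36 points (exact permutation p = 0.0571).

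Region sets of different lists also overlapped by unequal amounts. The Jaccard index, the shared regions over all regions of a pair of lists, averaged 0.418 for the 6 tumor pairs on alternate loci and 0.223 for the 3 thymus pairs. Pairs of a tumor with a thymus sample averaged 0.265. On chromosomes the values were 0.400, 0.280 and 0.290. Pairs share lists, so these means are given with no test.

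The 25 parent chromosomes differed widely in how many alternate peaks they carried relative to their own. Parent 5 had the most, 2748 peaks on 77 alternate sequences, followed by parent 6 with 2424 on 65 and parent 10 with 2157 on 43. Parent 19 had the fewest, 435 peaks on 10 sequences. Per 100 peaks on the chromosome itself there were 31.6 on alternate loci of parent 18, 31.5 for parent 10, 30.35 for parent 14 and 30.31 for parent 6. The median parent had 16.7, while parents 20, 2 and 19 had 6.86, 6.18 and 5.84. Over the 25 parents the number of alternate peaks rose with the number of alternate sequences that held a peak (Spearman rho 0.944). Sequences without a peak were not counted, so that number itself depends on the peaks. With the number of chromosome peaks, the number of alternate peaks had a Spearman rho of 0.00077. These are descriptions over parents that share the same 7 libraries.

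**Figure D4:**
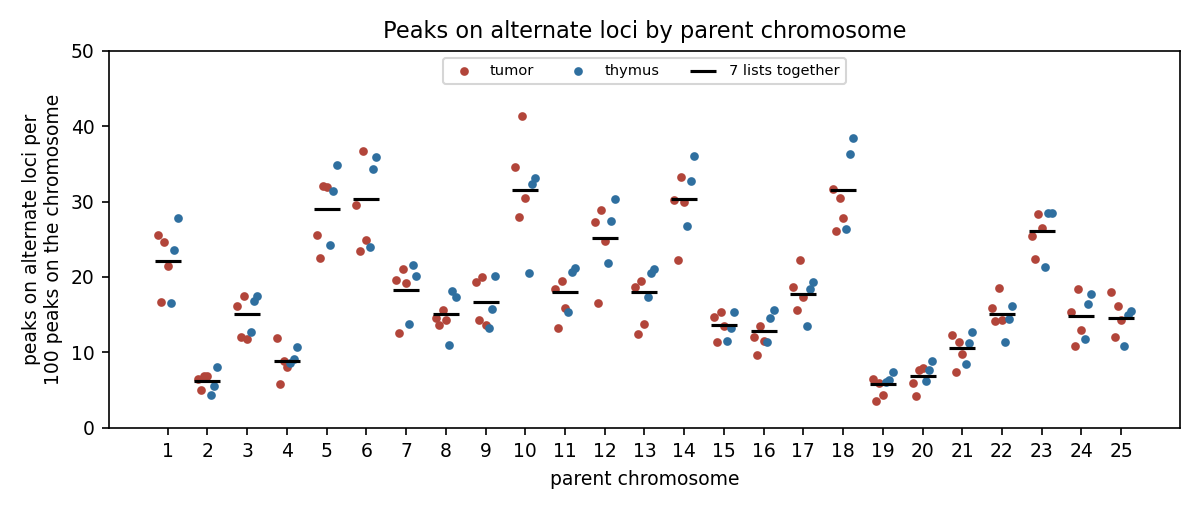
Peaks on alternate loci per 100 peaks on the parent chromosome, for the 25 parents, with 1 point per sample (tumors red, thymus blue) and a black bar for the 7 lists together. Parents 5, 6, 10, 14 and 18 have bars from 29.1 to 31.6, and parents 2, 19 and 20 have bars below 7.

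The smaller share of regions in all 7 lists and the smaller width were seen for most parents. The share of regions called in all 7 lists was lower on alternate loci than on the chromosome for 24 of 25 parents, parent 12 being the exception with 8.54% against 8.11%. The largest gap was at parent 22, with 4.48% on alternate loci and 10.8% on the chromosome. The median width was lower on alternate loci for 23 of 25 parents, the exceptions being 4 and 15. For the share of a list's peaks by parent, no tumor to thymus difference passed Benjamini-Hochberg adjustment over 51 sequence classes, with an exact permutation test per class whose smallest adjusted p was 0.624. The count at an unadjusted p under 0.05 was also 0. The groups overlapped for all 25 parents, whereas 7.84% of the 51 classes, all of them chromosomes, had groups that did not overlap.

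Single alternate sequences were often without a peak in 1 list although another list had many. Of 558 alternate sequences with at least 20 peaks over all lists, 59 (10.6%) had no peak in some list and at least 8 in another. Chromosomes were cut into stretches of 277 kb, the median end of the last peak on an alternate sequence. Among 3021 such stretches with at least 20 peaks the share was 3.34%, and over both kinds together it was 4.47%. The last peak of an alternate sequence ended at up to 952 kb, and the kinds were not matched for length or peak number. Without thymus 2 the shares were 5.91% on alternate loci and 2.85% on chromosomes. The list without a peak was thymus 2 for 30 of the 59 alternate sequences, tumor 4 for 23 and tumor 1 for 4. Among the 101 chromosome stretches of this kind it was thymus 2 for 16, tumor 4 for 45 and tumor 1 for 36. More than 1 list could lack a peak on the same sequence or stretch. With at least 5 peaks as the limit the shares were 14.9% and 5.30%, and with at least 10 they were 5.20% and 2.18%. Both limits and this comparison were chosen after the data were seen, and no test was run.

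Several such sequences split the samples sharply. On chr14_KZ115453v1_alt, which carries f9a, the gene of clotting factor IX, tumor 1 to 4 had 23, 13, 30 and 9 peaks and thymus 2, 3 and 5 had 0, 8 and 4. Every tumor had more peaks there than any thymus sample. On chr10_KZ114918v1_alt, where the study's tables name bhlha9, a basic helix-loop-helix factor, the counts were 11, 5, 29 and 0 in tumors and 0, 3 and 1 in thymus. Tumor 4 therefore lacked peaks that the other 3 tumors had.

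Other sequences had a single sample apart. On chr8_KZ115273v1_alt tumor 2 had 27 peaks and the other 6 lists had 0. The 27 peaks of tumor 2 formed 27 regions. On chr18_KZ114960v1_alt thymus 2 had 0 peaks, while thymus 3 and 5 had 27 and 28 and the tumors had 8, 17, 19 and 10. On chr1_KZ115033v1_alt, with klf12a, a Krüppel-like transcription factor, tumor 1 had 0 peaks, the other tumors had 9, 6 and 6, and thymus 2, 3 and 5 had 9, 15 and 17. On chr24_KZ115710v1_alt tumor 2 had 14 peaks and no other list had more than 4.

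Splits between the groups by sequence were near or under the background. The share of a list's peaks was higher in every tumor than in every thymus sample for 22 of the 558 sequences (3.94%), with a background of 7.04% over alternate sequences and chromosome stretches. It was higher in every thymus sample for 54 (9.68%), with a background of 9%. Taken as a share of the list's alternate peaks alone, the counts were 33 (5.91%) and 54 (9.68%). For chromosome stretches, taken as a share of the list's chromosome peaks, they were 209 (6.92%) and 279 (9.24%).

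The sequences with the most regions followed the same pattern of unequal lists. The first, chr23_KZ115673v1_alt, held 84 regions, with 25, 26, 30 and 20 peaks in tumor 1 to 4 and 19, 44 and 37 in thymus 2, 3 and 5. Next came chr10_KZ115326v1_alt with 80 regions, which carries cblb, a ubiquitin ligase that restrains T-cell receptor signalling, and had 36, 30, 35 and 24 peaks in tumors and 15, 38 and 39 in thymus. The sequence chr10_KZ114915v1_alt also carries cblb and had 59 regions, with 28, 25, 33 and 15 peaks in tumors and 4, 25 and 31 in thymus. On both cblb sequences thymus 2 had the fewest peaks and tumor 4, the shortest list with 19809 peaks, the second fewest. As a share of the list's peaks thymus 2 was still lowest on both, but tumor 4 was second lowest on neither.

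In contrast, chr6_KZ115174v1_alt had 11, 24, 22 and 18 peaks in the tumors and 30, 39 and 44 in thymus, so every thymus sample had more than any tumor. On chr10_KZ115333v1_alt the tumors had 31, 47, 70 and 24 peaks and thymus 2, 3 and 5 had 8, 24 and 17. Tumor 4 equalled thymus 3 in number, with lists of 19809 and 40335 peaks. As a share of the list's peaks every tumor was above every thymus sample on this sequence. On chr10_KZ115325v1_alt, which carries rps6kb1a, an S6 kinase downstream of mTOR, the tumors had 24, 31, 43 and 22 and thymus had 11, 35 and 31. It held 7 regions called in all 7 lists, and the groups overlapped in number of peaks. As a share of the list's peaks they did not, since every tumor was above every thymus sample.

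**Figure D5:**
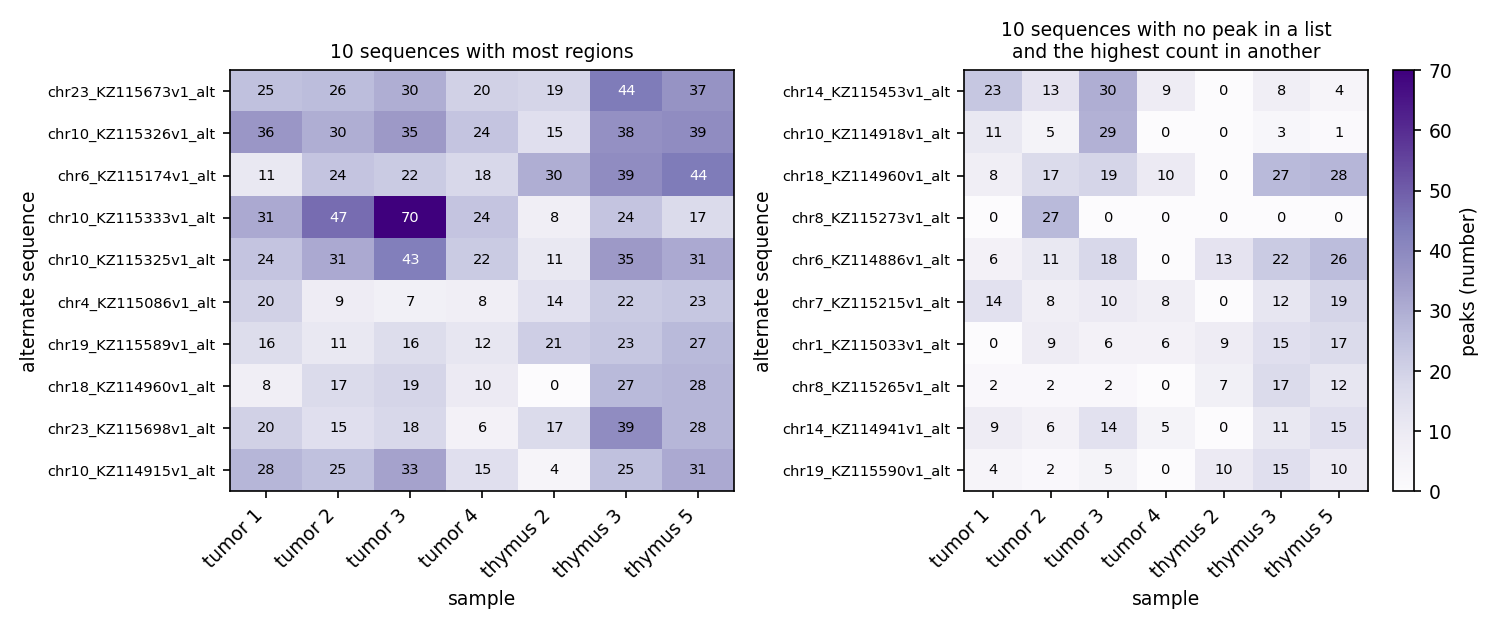
Number of peaks per sample on the 10 alternate sequences with the most merged regions (left) and on the 10 with no peak in some list and the highest count in another (right), with darker purple for more peaks. Tumor 3 has 70 peaks on chr10_KZ115333v1_alt, and tumor 2 has 27 on chr8_KZ115273v1_alt where the other 6 lists have 0.

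Of the 888 alternate regions called in all 7 lists, 93 carry a gene name in the study's tables, which were available in shortened form. A gene named at a region is the one given to an interval that overlaps it. Positions of the genes themselves were not used. The widest for their lists lay at chr17_KZ115528v1_alt, positions 304964 to 310752, at fam167b. Peaks there covered 4751, 5678, 5618 and 5379 bp in tumor 1 to 4 and 3890, 4808 and 5140 bp in thymus 2, 3 and 5. The groups overlapped, with 5357 ± 424 bp in tumors and 4613 ± 647 bp in thymus. In the RefSeq gene order of the GRCz12tu assembly fam167b lies 3 places from lck on chromosome 17. The lck gene encodes the kinase of early T-cell receptor signalling, and its promoter drives the transgenes in all these fish. That gene order is of another assembly than GRCz11, and a link between this region and lck was not tested. In tumor 1 the highest fold enrichment over background in this region was 3.27. It was the lowest among the 10 common regions of highest rank, where the others had 4.12 to 7.77.

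A second wide region lay at chr25_KZ115732v1_alt, positions 59419 to 67897. The names given there are elmo3, an adaptor of cell engulfment and migration, and setd6, a lysine methyltransferase. The region held 6953, 6536, 7203 and 5320 bp of peaks in tumors and 3925, 7513 and 7726 bp in thymus. Tumor 4 and thymus 2 were the low samples of their groups. At chr10_KZ115335v1_alt, positions 131401 to 137071, the name given is setd1ba, a histone methyltransferase of lysine 4 of histone H3. Peaks there covered 3128, 5038, 5511 and 3672 bp in tumors and 1466, 3532 and 5083 bp in thymus. At hnrnpl2, an RNA-binding protein of the hnRNP L type, on chr15_KZ115469v1_alt, positions 205403 to 208250, they covered 2010, 2570, 2652 and 1775 bp in tumors and 1700, 1714 and 2488 bp in thymus. Both regions had overlapping groups.

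One common region was wider in every thymus sample than in any tumor. It lies at chr22_KZ115637v1_alt, positions 280056 to 284007, without a gene name in the tables. Peaks covered 2314, 1797, 2880 and 1013 bp in tumor 1 to 4 and 3095, 3599 and 3522 bp in thymus 2, 3 and 5. Tumors had a mean of 2001 ± 793 bp and thymus a mean of 3405 ± 272 bp (SD, n = 4 and n = 3). It was singled out after its values were seen, so no test is given.

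Regions called in every tumor and no thymus sample numbered 75 on alternate loci, 0.509% of 14724, with a background of 0.473% over all sequences and 0.474% on chromosomes. They lay on 62 sequences and had all 25 chromosomes as parents. Their median width was 689 bp, against 969.5 bp for such regions on chromosomes. Regions called in every thymus sample and no tumor numbered 62, or 0.421%, with a background of 0.633% over all sequences and 0.652% on chromosomes. They lay on 51 sequences of 20 parents, with a median width of 565 bp. The share on alternate loci was thus close to the background for tumor-only regions and lower than it for thymus-only regions, with no test. Dropping a sample loosens each rule. Tumor-only regions numbered 113 without tumor 1 (0.795%, background over all sequences 0.715%), 169 without tumor 4 (1.17%, background 1.02%), 123 without thymus 3 (1.002%, background 0.812%) and 135 without thymus 5 (1.10%, background 0.879%). Thymus-only regions numbered 282 without thymus 2 (2.16%, background 2.43%), 149 without thymus 3 (1.21%, background 1.52%) and 132 without thymus 5 (1.08%, background 1.49%). The thymus-only share on alternate loci was below the background in 7 of 7 such settings, and the tumor-only share in 1 of 7, without tumor 2. The settings share most of their lists, so they are not independent.

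With a looser rule, at least 3 tumors and at most 1 thymus sample, 561 alternate regions (3.81%) were called, with a background of 2.92% over all sequences and 2.78% on chromosomes. At least 2 thymus samples and at most 1 tumor gave 617 (4.19%), with a background of 4.84% over all sequences and 4.93% on chromosomes. Where a list's peaks had to cover 50% or more of the region, there were 10 tumor-only regions (0.0892% of the alternate regions kept), with a background of 0.117% over all sequences, and 3 thymus-only regions (0.0267%), with a background of 0.125%.

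The named tumor-only regions are those with the widest peaks for their lists, and the class itself sets thymus to 0 in each. At idh1, the cytosolic isocitrate dehydrogenase, on chr9_KZ114908v1_alt, positions 248279 to 249560, peaks covered 685, 850, 1056 and 1277 bp in tumor 1 to 4. At rps6kb1a on chr10_KZ115325v1_alt, positions 216325 to 217291, they covered 945, 817, 692 and 910 bp. Cover at idh1 was lowest in tumor 1 and highest in tumor 4. At hmx1, a homeobox factor, on chr1_KZ115038v1_alt, positions 23931 to 25570, the cover was 952, 234, 1567 and 1313 bp, with tumor 2 low.

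Some sequences held more than 1 of them. On chr4_KZ114857v1_alt, positions 193112 to 195477, at usp6nl, an activator of Rab GTPase hydrolysis, peaks covered 1391, 1769, 1804 and 1455 bp. A neighbour on that sequence, positions 179083 to 180433, had 1163, 328, 1127 and 972 bp. On chr6_KZ115200v1_alt, the sequence with the most tumor-only regions (4), peaks at positions 120921 to 122240 covered 1256, 734, 909 and 1150 bp. The names given there are si:dkey-178o16.4 and trnt1, the enzyme that adds CCA ends to tRNAs. At ppm1bb, a protein phosphatase of the PPM family, on chr12_KZ115382v1_alt, positions 342484 to 345028, the cover was 1049, 1606, 2545 and 1723 bp, the highest mean of the 10 named (1731 ± 617 bp, SD, n = 4). The first in rank has no gene name. It lies on chr10_KZ115301v1_alt, positions 227289 to 229182, with 1612, 253, 1810 and 1503 bp.

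Among the thymus-only regions the tables name a gene at 2 of the 10 of highest rank. At ikbke, a kinase of innate immune signalling, on chr11_KZ115354v1_alt, positions 136889 to 138869, peaks covered 1243, 703 and 1663 bp in thymus 2, 3 and 5. At the other, on chr5_KZ115133v1_alt, positions 215741 to 217227, they covered 312, 1198 and 1058 bp. Thymus 2 had the least cover in 9 of these 10 regions, ikbke being the exception. The region of highest rank, on chr6_KZ114879v1_alt, positions 158085 to 160379, had 386, 1909 and 1817 bp.

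The study's tables put 131 gene names on 108 alternate sequences, and 16 of these names also have an interval on the parent chromosome. The gene copies were compared by the bp of peaks inside each copy's interval. Over 16 genes and 7 lists, both copies had a peak in 82 of 112 cases, the alternate copy alone in 15, the chromosome copy alone in 10, and neither in 5. Thymus 2 had both copies in 7 genes, the fewest of the lists. These intervals came from the study's own tables of these samples, which compare tumor with thymus. Neither the direction between groups nor a difference between copies in them is therefore independent evidence. The intervals of a gene need not be matching stretches of both copies.

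For some genes every list had a peak at both copies. At tlk2, a kinase of chromatin assembly, the alternate copy on chr3_KZ115064v1_alt had 883, 838, 886 and 771 bp of peaks in tumors and 802, 1001 and 797 bp in thymus, and the chromosome 3 copy 887, 923, 929 and 853 bp in tumors and 710, 1001 and 836 bp in thymus, each in an interval of 1001 bp. At pa2g4b, a growth-associated RNA-binding protein, the alternate copy had 520, 401, 990 and 406 bp in tumors and 273, 748 and 825 bp in thymus. Its copy on chromosome 23 had 907, 382, 653 and 367 bp in tumors and 339, 634 and 969 bp in thymus. At pa2g4b tumor 1 had more cover at the chromosome copy and tumor 3 more at the alternate copy.

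At other genes cover differed between the intervals of the copies, which need not be matching stretches. At plk1, the kinase that drives entry into and passage through mitosis, the alternate copy on chr1_KZ114998v1_alt had 357, 216, 348 and 113 bp in tumors and 387, 1632 and 1435 bp in thymus. Its copy on chromosome 1 had 1299, 724, 1599 and 563 bp in tumors and 66, 11 and 619 bp in thymus, with intervals of 2002 bp on each. Within these intervals tumors had more cover at the chromosome copy in 4 of 4 samples, and thymus more at the alternate copy in 3 of 3. The same held at dusp4, a phosphatase of MAP kinases, for thymus, with 502, 1001 and 752 bp at the alternate copy and 0 bp at the chromosome 21 copy in all 3. The tumors had 385, 0, 311 and 0 bp at the alternate dusp4 copy and 738, 265, 1068 and 534 bp at the chromosome copy, from 1001 and 2002 bp of intervals.

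At klf12a the alternate copy had 0, 2996, 2204 and 1555 bp in tumors and 388, 977 and 1639 bp in thymus, while the chromosome 1 copy had 0, 0, 194 and 0 bp in tumors and 0, 733 and 86 bp in thymus. The intervals were 4970 and 1810 bp. At f9a the alternate copy had 3002, 2024, 3459 and 713 bp in tumors and 0, 215 and 205 bp in thymus, and the chromosome 14 copy 371, 0, 0 and 213 bp in tumors and 0 bp in each thymus sample, from 4789 and 1001 bp of intervals. Tumor 1 had no peak inside the klf12a intervals of either copy. Whether reads at such genes were shared between copies by the aligner was not tested.

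Only the list of tumor 1 gives scores. Its 4073 peaks on alternate loci had a median fold enrichment over background of 3.86 and a median −log10 p of 6.26, and its 22069 peaks on chromosomes 3.49 and 6.74. Among peaks 400 to 600 bp wide the medians were 4.09 and 6.94 on alternate loci and 3.70 and 7.64 on chromosomes. In regions of all 7 lists they were 4.53 and 8.88 on alternate loci and 4.40 and 11.6 on chromosomes. Among peaks called in tumor 1 alone they were 3.28 and 4.41 on alternate loci (674 peaks) and 2.82 and 4.11 on chromosomes (4005 peaks). The median fold was thus higher on alternate loci in each of these sets, while the median −log10 p was lower in all but the last, where it was higher. With 1 list there is no replicate of this, and no test was run.

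Spacing along alternate loci depended on how chromosomes were read. The median distance from a peak to the next on the same alternate sequence was 11730, 9102, 12791 and 11846 bp in tumor 1 to 4 and 13610, 6457 and 7644 bp in thymus 2, 3 and 5. Against whole chromosomes the difference was -0.12 in log10 bp, shorter on alternate loci in 6 of 7 lists (exact sign-flip permutation p = 0.0313). With chromosomes split into stretches of 277 kb it was 0.12, longer on alternate loci in 7 of 7 lists (exact sign-flip permutation p = 0.0156). The direction thus depended on the length of chromosome that was set against the alternate loci.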

How the data were processed

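H3K27ac ChIP-seq of 4 tumors and 3 thymus samples was analysed as peak lists, and the input libraries were not used here. The labels and methods state that the authors aligned single-end reads of 50 bp to GRCz11 with Bowtie2 at default settings, dropped duplicates with samtools, and used MACS2 (2.1.1.2016030) to find broad peaks in each sample against whole cell lysate. By default Bowtie2 reports 1 placement for a read that fits several places, so reads that fit an alternate locus and its parent equally well are divided between them. For tumor 1 the deposited list also gives a score, the fold enrichment (ratio) and −log10 values for p and q, as the authors' peak caller wrote them. The other 6 lists hold positions and peak names only.

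Members and gene lists were chosen with earlier results of these data known. Peaks sharing 1 bp or more were merged across lists, and each list with a peak in the merged region counted as calling it. Group values were compared by exact permutation of labels (35 splits) and within-list values by exact sign flips (128 patterns), both two-sided on the absolute difference, with Python 3.11.15, NumPy 2.4.6, pandas 2.3.3, SciPy 1.17.1 and matplotlib 3.10.9. The code was tested on simulated data. Named were the 10 sequences with the most regions and, per class, up to 10 regions ranked by the median, over lists, of the percentile of peak width. Genes were named from intervals in the study's shortened tables, with no values taken. A gene placed at a region or on a sequence is one whose named interval lies there, and gene coordinates were not used. Alternatives were minimum peak width, equal list length, wide peaks of tumor 2, chromosome 4, overlap, bins, looser rules, covered length, the batch word, the replicate block and each sample left out. The comparison of regions in all lists, single sequences and chromosome stretches were added after the data were seen.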

Additional observations from a re-analysis of the deposited data

Results flagged for a closer look

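Among 13 measures tested for a sample far from the other 3 tumors, 3 passed the limit, where chance flags about 1 in 20 groups. The 13 measures come from the same 4 lists and are not independent, so 3 of 13 was not tested against that rate. The widest peak on an alternate locus was 4537 bp in tumor 1, and 5675 to 5678 bp in tumors 2 and 4 with 5618 bp in tumor 3. The difference between alternate loci and chromosomes in the share of peaks in regions of all 7 lists was -2.12 percentage points in tumor 2, the smallest gap of the tumors. The difference in median distance to the next peak, in log10 bp, was -0.256 in tumor 4, the largest of the tumors.

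Of 8 within-list differences compared between tumors and thymus, 2 differed with the smallest exact permutation p possible, 0.0286, unadjusted. The shortfall in mean width on alternate loci was -66.1 ± 4.04 bp in tumors (SD, n = 4) and -97.0 ± 21.2 bp in thymus (SD, n = 3), a difference of 30.9 bp. The difference in distance to the next peak, in log10 bp, was -0.168 in tumors and -0.053 in thymus, a difference of -0.114. With chromosomes in stretches of 277 kb these means were 0.06 and 0.194, and the difference between groups was -0.134 (exact permutation p = 0.0286). Neither would pass an adjustment over the 8.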

How the results depend on the processing

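The tumor minus thymus difference in the share of peaks on alternate loci, -0.59 percentage points, changed sign with peaks of at least 128 bp (0.53), with the 19809 widest peaks of each list (0.996), as a share of covered length (1.08), without tumor 2 (0.263) and without thymus 5 (0.332), and ranged from -1.93 to 0.332 over samples left out. The difference in number, -1702, was -5.92 with peaks of at least 128 bp (exact permutation p = 1), 197 among the 19809 widest peaks, and -2562.5 to -1237 over samples left out. The difference in median width was 125 bp with peaks of at least 128 bp (exact permutation p = 0.0286) and 158.5 to 204 bp over samples left out. Within lists, the difference in share of recurrent peaks was -1.31 without tumor 2 and up to 2.17 without thymus 2, the width difference -36.9 to -22.9 bp, the share in all lists -9.27 to -4.28 points, and the distance difference -0.142 to -0.0959, turning to 0.117 with chromosomes in stretches.

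Tumor-only regions, 75 in the main count, numbered 10 with peaks over 50% of a region, 561 by the looser rule and 158 in lists without the batch word, and 81 to 169 over samples left out. Thymus-only regions, 62, numbered 34 with peaks of at least 128 bp, 28 among the widest peaks, 3 with peaks over 50%, 23 in bins of 1 kb, 617 by the looser rule and 2965 without the batch-word lists, which leaves thymus 3 alone, and 66 to 282 over samples left out. Common regions, 888, numbered 38 with peaks over 50% and 106 in bins, and 889 to 1314 over samples left out. Numbers 2 and 3 occur in both tissues but name different fish and do not pair them. With the replicate block the share difference was 0.111, and no p-value is given because the numbers pair no fish. The 2 numbered pairs gave 442 tumor-only and 152 thymus-only regions. No share over all sequences was computed for the width limits, the bins, the lists without the batch word or the numbered pairs. It was also not computed for common regions under any of these alternatives. Those counts therefore do not tell alternate loci from other sequences. The lists give no depth, so a missing peak may be a weak one.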
